A study of Mus musculus with 37 samples.

Results

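The IFITM genes encode small membrane proteins that sit at the cell surface and in endosomes. They are best known as interferon-induced restriction factors that hinder the fusion of enveloped viruses with the host membrane, and in the mouse they were also described early on as fragilis genes, which mark germ cells. Here 5 IFITM genes, Ifitm1, Ifitm2, Ifitm3, Ifitm6 and Ifitm10, were followed through 37 RNA-seq libraries of uterine natural killer (uNK) cells, among 53700 genes counted. The genes were selected by name, on the ground that Ifitm1 and Ifitm2 fell in Ly49C/I+ cells, so their fall in that contrast is given as a description and not as a test. The files and the annotation hold 7 genes with an Ifitm name in all.

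The uNK cells were sorted from the uterus of pregnant C57BL6 mice at gestation day 9.5 to 10.5. NK cells are said to be educated when an inhibitory receptor for self MHC class I, such as NKG2A or Ly49C/I, has set their responsiveness, and cells that lack both receptors are called uneducated here. There were 9 libraries of WT uneducated cells (negative for Ly49C/I and NKG2A), 9 of WT NKG2A+ cells (negative for Ly49C/I), 6 of WT Ly49C/I+ cells (negative for NKG2A), 8 of NKG2A KO uneducated cells and 5 of NKG2A KO Ly49C/I+ cells. Cells with both receptors were not collected, and no treatment is named for any group. An age is given in the methods for mice used for spleen and other organs, but not for these pregnant mice, and the sources used here do not say how the KO was made. The labels do not say which libraries came from the same animal, so p-values measure the spread between these libraries. Between 13287163 and 18875033 reads were counted on genes per library (median 17273311). NK genes (Ncr1, Eomes, Prf1 and 6 others) summed to between 16406 and 23228 CPM in all libraries, where CPM is the count of a gene scaled to the total of its library, adjusted by TMM, a factor that evens out differences in composition between libraries. Klrc1, which encodes NKG2A, lay between 495 and 753 CPM in NKG2A+ libraries and at or below 13.9 CPM in the other WT libraries, which were sorted as NKG2A negative, so its level (at most 3.82 CPM in KO libraries) does not check the genotype. Klra9, which encodes Ly49I, lay between 452 and 1137 CPM in the Ly49C/I+ libraries of both genotypes and at or below 124 CPM in all others. Klra3, which encodes Ly49C, the other target of the sort, ran against the label, at 54.9 ± 19.5 CPM in WT Ly49C/I+ against 138 ± 50.7 in WT uneducated libraries and at 94.4 ± 11.2 against 147 ± 25.0 CPM in KO mice. Ly49 genes are close relatives in sequence, and how their reads were split is not known. In these bulk libraries, fewer cells of a type and less RNA per cell cannot be told apart.

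In the GENCODE M21 annotation of GRCm38, 4 of the genes lie in a cluster of 63.1 kb on chromosome 7. Ifitm2 (ENSMUSG00000060591) runs from 140954837 to 140955987 on the minus strand. Ifitm1 (ENSMUSG00000025491) runs from 140967221 to 140969825 on the plus strand. Ifitm3 (ENSMUSG00000025492, 141009586 to 141010770) and Ifitm6 (ENSMUSG00000059108, 141015699 to 141017924) follow on the minus strand. Ifitm10 (ENSMUSG00000045777, 142325837 to 142373753, minus strand) lies on the same chromosome, 1308 kb beyond the cluster.

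The promoters are shown because interferon-regulated genes often carry an interferon-stimulated response element (ISRE) near their start, and because Ifitm1 and Ifitm2 had the largest differences while they stood apart from the interferon genes described below. RefSeq windows of GRCm38.p6, from 250 bases before to 50 bases after each gene's RefSeq start, were searched on both strands for the ISRE-like letters GAAANNGAAA. A match was present in 3.44% of 32851 windows of that length. Ifitm2 held 1 match, 46 bases before its RefSeq start and outside annotated exons. Ifitm3 held 2 matches just after its start, in the first exon. The windows of Ifitm1, Ifitm6 and Ifitm10 held none, which says only that these letters are not in those windows. The windows of Ifitm1 (140967826 to 140968125) and Ifitm6 (141016843 to 141017142) lie inside the GENCODE genes given above. The bases before the GENCODE starts of these genes were therefore not searched, and the stretch printed for Ifitm1 also lies inside its GENCODE gene. For Ifitm1 (chr7:140967928-140968027, plus strand) and Ifitm2 (chr7:140955988-140956087, minus strand) the 100 bases just before the exon that the window reaches are printed, and for Ifitm3 (chr7:141010715-141010743, minus strand) only the site itself. Capitals mark the matches.
Ifitm1: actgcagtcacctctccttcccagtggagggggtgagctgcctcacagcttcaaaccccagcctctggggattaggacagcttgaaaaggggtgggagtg
Ifitm2: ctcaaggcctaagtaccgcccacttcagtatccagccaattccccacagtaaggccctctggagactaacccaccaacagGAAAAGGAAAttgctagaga
Ifitm3: gGAAAAGGAAActtctgaGAAACCGAAAc
The letters TTCNNNGAA, a gamma-activated site (GAS), were also sought. They occurred once each in Ifitm3, 14 bases after the start and overlapping the second ISRE-like match, and in Ifitm6, and in 8.30% of all windows.

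Ifitm1, whose protein stays largely at the cell surface, was far lower in every educated group than in uneducated cells. In WT uneducated libraries it lay between 71.0 and 327 CPM (median 130, n = 9). NKG2A+ libraries lay between 9.15 and 77.3 CPM (median 52.3, n = 9), and WT Ly49C/I+ libraries between 7.86 and 47.4 CPM (median 19.8, n = 6). All 6 WT Ly49C/I+ libraries were thus below all 9 uneducated libraries, whereas the highest NKG2A+ library (number 1) overlapped the 2 lowest uneducated ones. In NKG2A KO mice, Ifitm1 lay between 55.5 and 262 CPM in uneducated libraries (median 108, n = 8). The 5 KO Ly49C/I+ libraries read 23.8, 16.2, 10.6, 30.7 and 8.14 CPM, all below the 8 uneducated ones.

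Ifitm2, the neighbour of Ifitm1 and a close relative in sequence, showed the same order of groups. It lay between 29.6 and 93.8 CPM in WT uneducated libraries (median 55.7), between 13.2 and 34.2 CPM in NKG2A+ libraries (median 25.2) and between 9.54 and 36.8 CPM in WT Ly49C/I+ libraries (median 15.1). Single libraries overlapped: WT uneducated library 6 was lower than the highest library of both educated groups. In NKG2A KO mice it lay between 32.0 and 72.9 CPM in uneducated libraries (median 44.8) and at 7.01, 11.1, 11.8, 17.8 and 10.7 CPM in the 5 Ly49C/I+ libraries, with no overlap.

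Ifitm3, the member best known for restricting influenza virus, had the same order of WT medians, but its NKG2A+ libraries were close to the uneducated ones. WT uneducated libraries lay between 18.7 and 72.0 CPM (median 33.8), NKG2A+ libraries between 14.9 and 78.2 CPM (median 31.9) and WT Ly49C/I+ libraries between 7.18 and 50.9 CPM (median 13.0). Uneducated and NKG2A+ libraries covered nearly the same range, and WT Ly49C/I+ library 1 stood far above the other 5 of its group, which ended at 23.6 CPM. In NKG2A KO mice, uneducated libraries lay between 27.5 and 58.6 CPM (median 35.5) and Ly49C/I+ libraries at 21.6, 8.02, 19.5, 18.2 and 12.6 CPM, with no overlap.

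Ifitm10, a distant relative whose role is little described, was not lower in educated cells. It lay between 47.3 and 114 CPM in WT uneducated libraries (median 71.0), between 66.0 and 132 CPM in NKG2A+ libraries (median 109) and between 85.6 and 128 CPM in WT Ly49C/I+ libraries (median 97.1). KO uneducated libraries lay between 63.2 and 124 CPM (median 97.7), and KO Ly49C/I+ libraries at 121, 99.0, 151, 129 and 110 CPM. The groups overlapped throughout.

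Ifitm6 was barely detected. It had no read in 23 of 37 libraries and at most 50 reads, or 3.07 CPM, in WT Ly49C/I+ library 1, and it never passed the filter on low counts described with the methods. Its levels in the groups were not distinguishable at this depth. Ifitm5, known from bone, and Ifitm7 were lower still, with at most 13 reads each in any library, and Ifitm4p of the same list was not matched in the files. The plot of CPM by library shows these patterns.

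**Figure D1:**
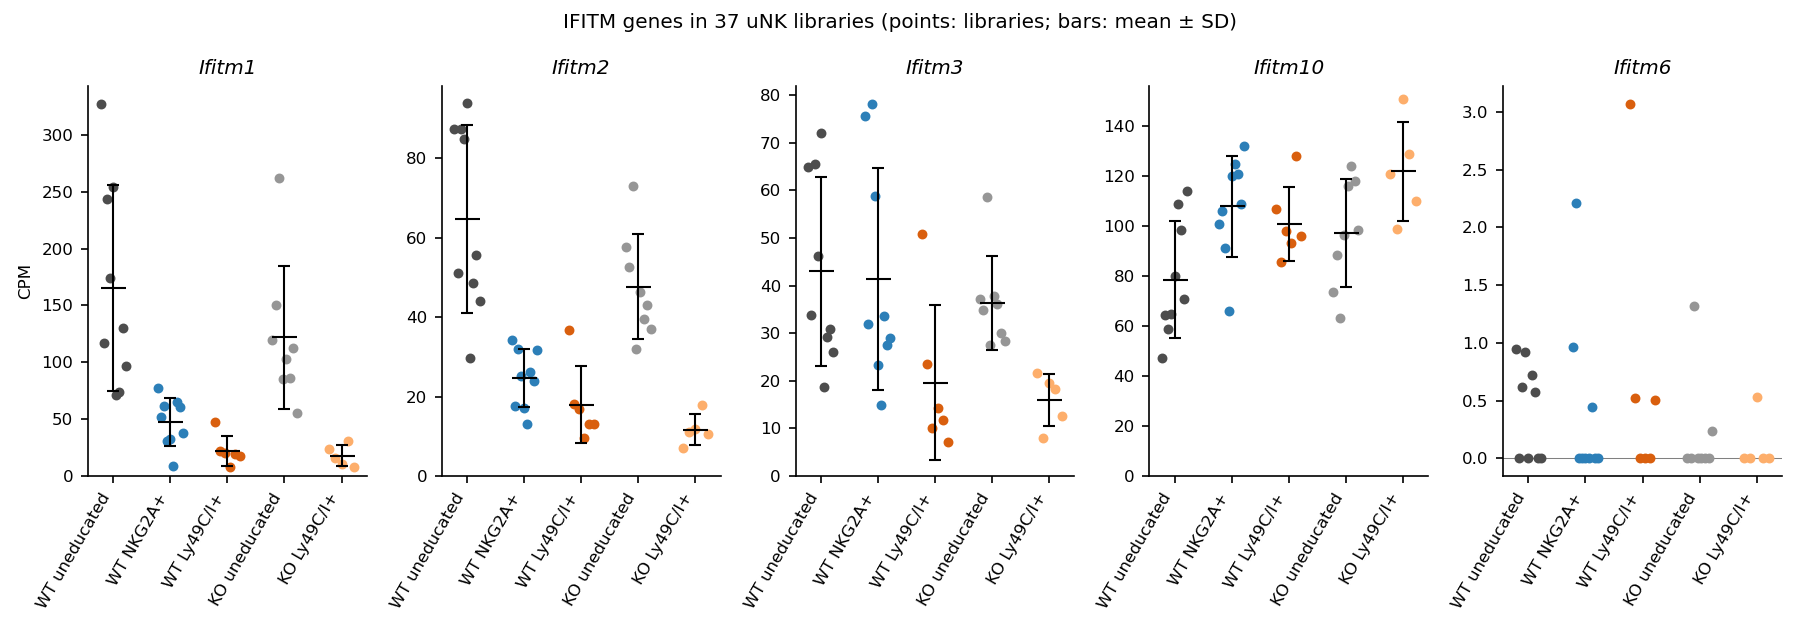
CPM of the 5 IFITM genes on linear axes, each point 1 library, in 9 WT uneducated, 9 WT NKG2A+, 6 WT Ly49C/I+, 8 NKG2A KO uneducated and 5 NKG2A KO Ly49C/I+ libraries, with the mean ± SD as bars (not drawn for Ifitm6). Ifitm1 and Ifitm2 sit low in the educated groups, Ifitm3 is low in Ly49C/I+ groups with WT library 1 at 50.9 CPM apart from the rest, and most points of Ifitm6 are at 0.

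Per kb of exonic sequence, Ifitm1, Ifitm2, Ifitm3 and Ifitm10 stood far apart in uneducated cells and closer together in Ly49C/I+ cells. In WT uneducated cells the mean level of Ifitm1 was 151 ± 82.8 CPM per kb (SD, n = 9), followed by Ifitm2 at 98.8 ± 36.0, Ifitm3 at 63.5 ± 29.2, Ifitm10 at 16.4 ± 4.87 and Ifitm6 at 0.464 ± 0.459. In WT Ly49C/I+ cells Ifitm3 was at 28.9 ± 24.0 CPM per kb (SD, n = 6), Ifitm2 at 27.5 ± 14.8, Ifitm10 at 21.2 ± 3.10 and Ifitm1 at 20.5 ± 12.1. In NKG2A KO Ly49C/I+ cells Ifitm10 was at 25.5 ± 4.13 CPM per kb (SD, n = 5), Ifitm3 at 23.6 ± 8.18, Ifitm2 at 17.8 ± 5.97 and Ifitm1 at 16.4 ± 8.54, so that these neighbours in the order lay within each other's SD. Ifitm6 was far below these 4 members, at 0.754 ± 1.32 CPM per kb in WT and 0.117 ± 0.262 in KO Ly49C/I+ cells. The length behind the level of Ifitm2 is uncertain. An annotated gene, Gm45717, shares 268 of its 655 exonic bases (246 of them coding) on the same strand and had 0 reads in all 37 libraries, and 48.5% of its stretches of 50 bases recur in transcripts of other genes, mostly pseudogenes. On the 387 exonic bases left, Ifitm2 in WT uneducated cells would stand at 167 ± 60.9 CPM per kb, beside Ifitm1. In WT Ly49C/I+ cells it would stand at 46.5 ± 25.1, above the means of all other members there. In KO Ly49C/I+ cells it would be at 30.2 ± 10.1, above the mean of Ifitm10. Of the other members, 5.02% of the stretches of Ifitm1, 10.0% of Ifitm3, 3.51% of Ifitm10 and 0 of Ifitm6 recur elsewhere. This limit is shared by all groups.

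The contrast that chose the genes compared WT Ly49C/I+ with WT uneducated cells. Ifitm1 fell by 2.87 on the log2 scale (SE 0.409), a 7.31-fold difference, from a mean of 165 ± 90.6 to 22.4 ± 13.2 CPM. Ifitm2 fell by 1.83 (SE 0.311) and Ifitm3 by 1.12 (SE 0.408), while the log2 fold change of Ifitm10 was 0.38 (SE 0.173). Without WT Ly49C/I+ library 1 the value of Ifitm3 was -1.68. No p-value is given for these values. Ifitm1 was the only one of the 4 members above the filter whose libraries did not overlap, a pattern found in the lower direction for 1.40% of 9292 genes, and nothing is read from this because the contrast chose them. In the same comparison 4.70% of genes were called lower and 4.50% higher, at an adjusted p under 0.05 in edgeR's quasi-likelihood test.

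The same comparison in NKG2A KO mice used libraries that the WT contrast does not hold. In KO cells, Ifitm1, Ifitm2 and Ifitm3 were lower in cells with Ly49C/I than in uneducated ones. Ifitm1 fell by 2.76 on the log2 scale (SE 0.373, adjusted p = 0.000317), a 6.78-fold difference from 122 ± 63.0 to 17.9 ± 9.35 CPM. Ifitm2 fell by 2.02 (SE 0.240, adjusted p = 0.000146) and Ifitm3 by 1.18 (SE 0.241, adjusted p = 0.00377, edgeR quasi-likelihood test, n = 5 and 8). Ifitm10 had a log2 fold change of 0.33 (95% interval 0.01 to 0.65) and did not pass (adjusted p = 0.144). Thus 3 of 4 members tested were called lower, where 8.99% of 9299 genes were called lower and 7.34% higher, and the same 3 had no overlap between groups, where 4.12% of genes did not overlap in that direction. The selection of these genes did not state a genotype, so the values of Ifitm1 and Ifitm2 here are not certain to be independent of it. With all 5 groups in 1 fit, Ifitm3 no longer passed (adjusted p = 0.0521). The KO effect of Ly49C/I minus the WT effect, estimated as an interaction and not tested, was 0.12 for Ifitm1 (SE 0.540, 95% interval -0.98 to 1.23), -0.17 for Ifitm2 (SE 0.393, -0.98 to 0.63), -0.05 for Ifitm3 (SE 0.499, -1.07 to 0.97) and -0.04 for Ifitm10 (SE 0.242). The intervals are wide and do not show that the effects were equal.

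NKG2A+ cells also had less Ifitm1 and Ifitm2 than WT uneducated cells. Ifitm1 fell by 1.79 on the log2 scale (SE 0.338, adjusted p = 0.000956) to 47.5 ± 21.3 CPM, and Ifitm2 by 1.39 (SE 0.225, adjusted p = 0.000214), from 64.7 ± 23.6 to 24.6 ± 7.32 CPM (SD, n = 9 and 9, edgeR quasi-likelihood test). Ifitm3 showed no such difference, at 41.4 ± 23.3 against 43.0 ± 19.8 CPM, a log2 fold change of -0.05 (95% interval -0.69 to 0.60, adjusted p = 0.948). For Ifitm10 it was 0.46 (SE 0.161), short of the threshold (adjusted p = 0.0557). Of the 4 members tested, 2 were called lower, where 7.56% of 9339 genes were called lower and 7.47% higher. This comparison shares the uneducated libraries with the one that chose the genes. Without NKG2A+ libraries 1, 3 and 4, which are described below, the value of Ifitm3 was -0.69 (adjusted p = 0.139) and that of Ifitm10 was 0.60 (adjusted p = 0.0279). Ifitm10 passed in 4 of 18 fits that left out 1 library and in 6 of 12 other alternatives (adjusted p from 0.00981 to 0.105).

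Ratios within a library were chosen after the values were seen and were not tested. Ifitm3 stood at 0.545 to 0.767 of the CPM of Ifitm2 in WT uneducated libraries (median 0.633) and at 0.918 to 2.45 in NKG2A+ libraries (median 1.36). In WT Ly49C/I+ libraries the ratio ran from 0.542 to 1.5, in KO uneducated libraries from 0.644 to 0.920, and in KO Ly49C/I+ libraries from 0.725 to 3.08. The ratio of Ifitm3 to Ifitm1 ran from 0.199 to 0.394 in WT uneducated, 0.456 to 1.89 in NKG2A+ and 0.403 to 1.82 in WT Ly49C/I+ libraries. Both educated groups of WT mice thus lay above uneducated cells in it. In KO mice it ran from 0.224 to 0.511 in uneducated and from 0.496 to 1.83 in Ly49C/I+ libraries, which overlapped. Ifitm1, the divisor, is among the genes whose fall chose the family, so nothing is read from this separation.

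Between the educated populations of WT mice, none of the 4 members tested passed, where 2.73% of 9308 genes were called. NKG2A+ cells had more Ifitm1 than Ly49C/I+ cells by 1.07 on the log2 scale (95% interval 0.27 to 1.87, adjusted p = 0.133) and Ifitm3 by 1.07 (0.17 to 1.97, adjusted p = 0.188). The values were 0.44 for Ifitm2 (-0.15 to 1.02, adjusted p = 0.437) and 0.08 for Ifitm10 (-0.19 to 0.35, adjusted p = 0.806). At an unadjusted p under 0.05, Ifitm1 and Ifitm3 passed, as did 18.4% of all genes, and DESeq2, which called 558 genes against 254, called Ifitm1 (adjusted p = 0.0409). With same-numbered libraries as a block, the quasi-likelihood test also called Ifitm1 (1.34, adjusted p = 0.0155). Leaving out single libraries changed the call. Without WT Ly49C/I+ library 1, Ifitm1 (1.43, adjusted p = 0.0432) and Ifitm3 (1.62, adjusted p = 0.0311) both passed, and without NKG2A+ library 6, whose Ifitm1 was the lowest of its group, Ifitm1 passed (1.21, adjusted p = 0.044). The WT Ly49C/I+ libraries are also part of the contrast that chose the genes.

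No member passed the test between NKG2A KO and WT mice. In uneducated cells the log2 fold changes of KO against WT were -0.46 for Ifitm1 (95% interval -1.10 to 0.19, adjusted p = 0.83), -0.46 for Ifitm2 (-0.90 to -0.01, adjusted p = 0.735), -0.26 for Ifitm3 (-0.77 to 0.25) and 0.30 for Ifitm10 (-0.06 to 0.66). In Ly49C/I+ cells they were -0.34 (-1.24 to 0.56), -0.63 (-1.41 to 0.14), -0.32 (-1.30 to 0.67) and 0.25 (-0.02 to 0.52). Of all genes tested, 0% were called in either comparison by the quasi-likelihood test in edgeR, while 619 and 992 genes had an unadjusted p under 0.05. In uneducated cells Ifitm2 alone of the members had an unadjusted p under 0.05, and DESeq2 called 1 gene there and 118 in Ly49C/I+ cells, the likelihood ratio test 1 and 60, with no member among them. From highest to lowest, Ifitm1 and Ifitm2 thus ran through WT uneducated, KO uneducated, NKG2A+, WT Ly49C/I+ and KO Ly49C/I+ cells, and of the neighbours in this order the first pair, the third pair and the last pair did not pass the adjusted threshold, although the interval of Ifitm2 in the first and that of Ifitm1 in the third left out 0, while KO uneducated and NKG2A+ cells were not compared by a test. The fold changes are drawn with their intervals.

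**Figure D2:**
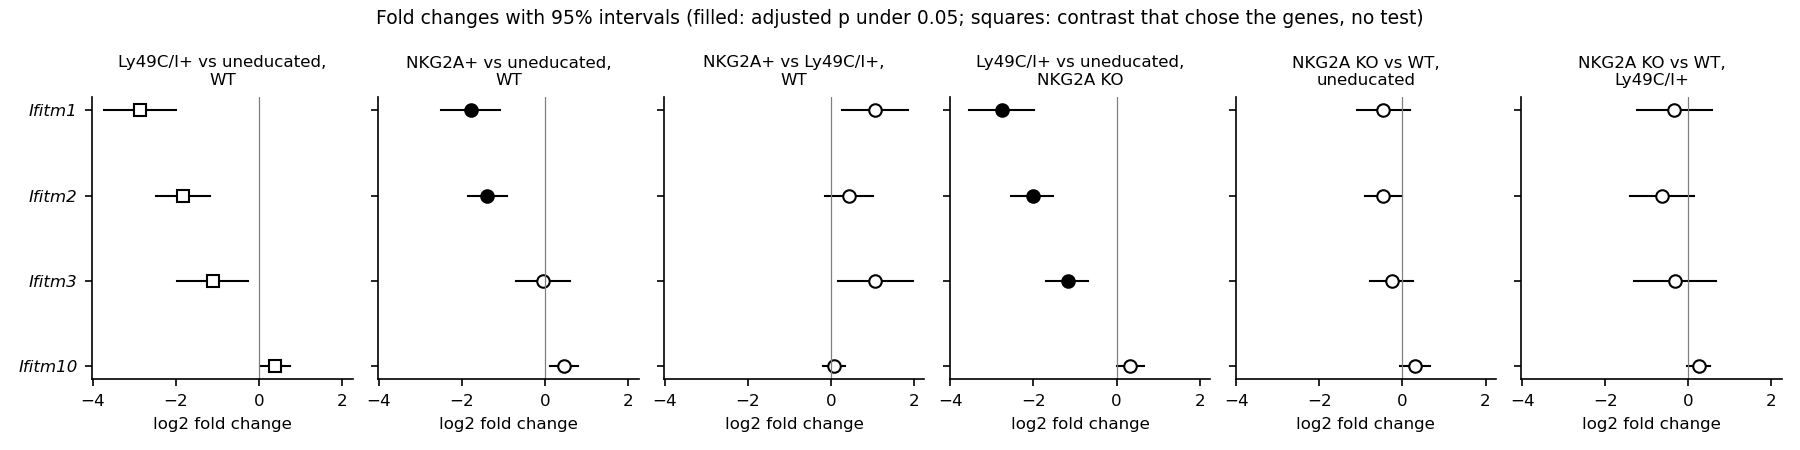
Log2 fold change of 4 IFITM genes in 6 comparisons, first group over second, with 95% intervals as lines. Filled circles passed an adjusted p of 0.05, open circles did not, and squares belong to the contrast that chose the genes and were not tested. Ifitm1 and Ifitm2 are lower in NKG2A+ and in KO Ly49C/I+ cells than in uneducated cells, Ifitm3 passed in the latter, and the genotype intervals cross 0 except that of Ifitm2 in uneducated cells (-0.90 to -0.01).

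IFITM genes are taken as interferon-stimulated genes, which are switched on through interferon receptors, Jak kinases and Stat and Irf transcription factors. The fall of Ifitm1 and Ifitm2 did not go along with a fall of that programme. In NKG2A+ against uneducated cells, 21 of 33 interferon-stimulated genes tested were called higher and 0 lower, with a median log2 fold change of 0.72, beside 0.01 over all genes tested. Oasl2 (1.79), Ifi27l2a (1.65), Ifit3 (1.54) and Mx1 (1.16) had the largest values among those called. Without NKG2A+ libraries 1, 3 and 4 the count was 9 of 33 and the median 0.56, beside 5 of 11 receptor and signalling genes, which are described below.

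Ly49C/I+ cells also had calls in the higher direction. In WT mice 12 of 33 were called higher and 0 lower (median 0.64, all genes 0.01), and the largest values among those called were Mx1 (1.60), Ifi27l2a (1.18), Ifi44 (1.08) and Oas3 (0.94). With WT Ly49C/I+ library 1 left out the count was 9 of 33 (median 0.63), beside 4 of 11 receptor and signalling genes. Over all genes tested, 4.50% were called higher in WT and 7.34% in KO Ly49C/I+ cells. In NKG2A KO mice 23 of 35 were called higher (median 0.73, all genes 0.02), with the largest values among those called for Mx2 (1.67), Ifit1 (1.33), Mx1 (1.12) and Ifi27l2a (1.06). In KO mice Ly6e, a surface protein that, like IFITM, acts on viral entry, was the only one called lower (-0.28, SE 0.0584, adjusted p = 0.00458). Mx1, a dynamin-like GTPase that blocks influenza virus, was at 78.5 ± 22.9 CPM in KO Ly49C/I+ and 36.2 ± 6.87 CPM in KO uneducated cells. No gene of this list was called between NKG2A+ and Ly49C/I+ cells (34 tested, median 0.02) or between genotypes in uneducated (33 tested, median 0.30) or Ly49C/I+ cells (35 tested, median 0.42).

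The receptors and signalling genes moved with that list and not with Ifitm1. Of 11 tested, 8 were called higher in NKG2A+ cells (median 0.45), 6 in WT Ly49C/I+ cells (median 0.48) and 8 in KO Ly49C/I+ cells (median 0.43), and 0 lower in each. Irf7, the transcription factor that amplifies type I interferon responses, rose by 0.93, 1.10 and 0.71 on the log2 scale in these comparisons. Irf9, a DNA-binding partner of Stat2, rose by 0.75, 0.68 and 0.60, and Irf1 by 0.63, 0.69 and 0.56. Ifngr1, a chain of the interferon gamma receptor, rose by 0.58 in NKG2A+ cells, and Stat2 by 0.64 and 0.57 in WT and KO Ly49C/I+ cells. Between NKG2A+ and Ly49C/I+ cells only Ifngr1 was called (0.31, adjusted p = 0.0283, of 11, median -0.06). Between genotypes none of the 11 was called, with medians of 0.19 and 0.18. The comparisons in WT mice share their uneducated libraries.

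**Figure D3:**
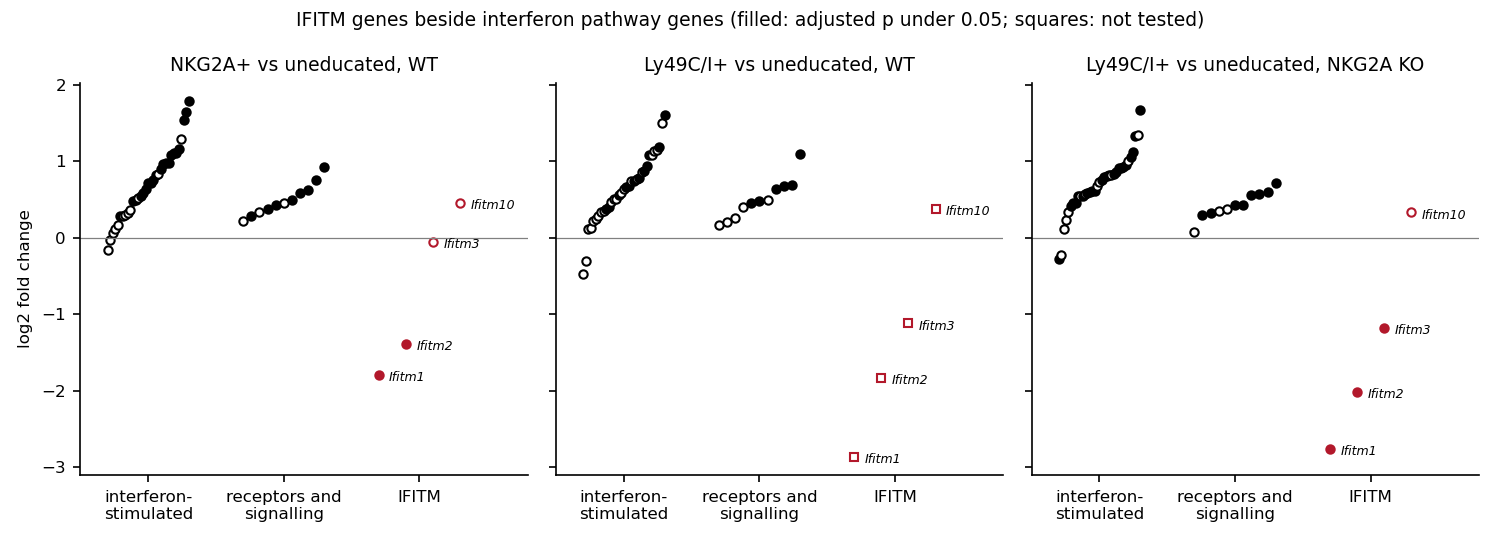
Log2 fold change of 33 to 35 interferon-stimulated genes, 11 interferon receptor and signalling genes (black) and 4 IFITM genes (red) in 3 comparisons of educated with uneducated cells, each point 1 gene, sorted by value. Filled points passed an adjusted p of 0.05, and squares were not tested. Most interferon genes lie above 0, while Ifitm1 and Ifitm2 lie below every one of them.

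Among genes for proteins that act on IFITM, 1 of 6 was called in each comparison of educated with uneducated cells. Over all genes tested, 15.0% were called in NKG2A+, 9.20% in WT Ly49C/I+ and 16.3% in KO Ly49C/I+ cells, so nothing is read from these counts. Of 6 tested, Zdhhc20, a palmitoyltransferase that modifies IFITM3, was higher in NKG2A+ cells (0.34, adjusted p = 0.0176, the only call). Vcp, an ATPase that extracts ubiquitinated proteins from membranes, was lower in Ly49C/I+ cells of WT (-0.40, adjusted p = 0.0495) and KO mice (-0.58), the only call in each. The ubiquitin ligase Nedd4, the methyltransferase Setd7, the protease Zmpste24 and the endosomal partner Vapa were not called in any comparison. The medians of the 6 were -0.11 in NKG2A+, -0.30 in WT Ly49C/I+ and -0.11 in KO Ly49C/I+ cells, beside 0.01, 0.01 and 0.02 over all genes. None was called between NKG2A+ and Ly49C/I+ cells (median 0.18) or between genotypes (medians -0.07 and 0.12).

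The genes around the cluster did not fall as far as Ifitm1 and Ifitm2. Within 250 kb of the cluster 39 other genes are annotated, of which 13 to 15 passed the filter. In NKG2A+ cells 1 of 13 was called higher and 1 lower (median 0.01). These were Irf7 and Rnh1, a ribonuclease inhibitor (-0.21, adjusted p = 0.0332). In KO Ly49C/I+ cells 1 of 13 was called higher, again Irf7, and 2 lower (median 0.19), Psmd13, a proteasome subunit (-0.42), and Rnh1 (-0.39). In WT Ly49C/I+ cells Irf7 was the only call of 14 (median 0.16). Over all genes tested, 7.47% were called higher and 7.56% lower in NKG2A+ cells. The shares were 7.34% and 8.99% in KO and 4.50% and 4.70% in WT Ly49C/I+ cells, so nothing is read from the counts of neighbours. Pgghg, a glycosidase gene at -25.8 kb from the start of Ifitm1, was at 0.30, 0.12 and 0.10 on the log2 scale in NKG2A+, KO Ly49C/I+ and WT Ly49C/I+ cells, with no call. No neighbour was called between NKG2A+ and Ly49C/I+ cells (14 tested, median -0.12) or between genotypes (13 and 15 tested, medians 0.13 and 0.09).

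**Figure D4:**
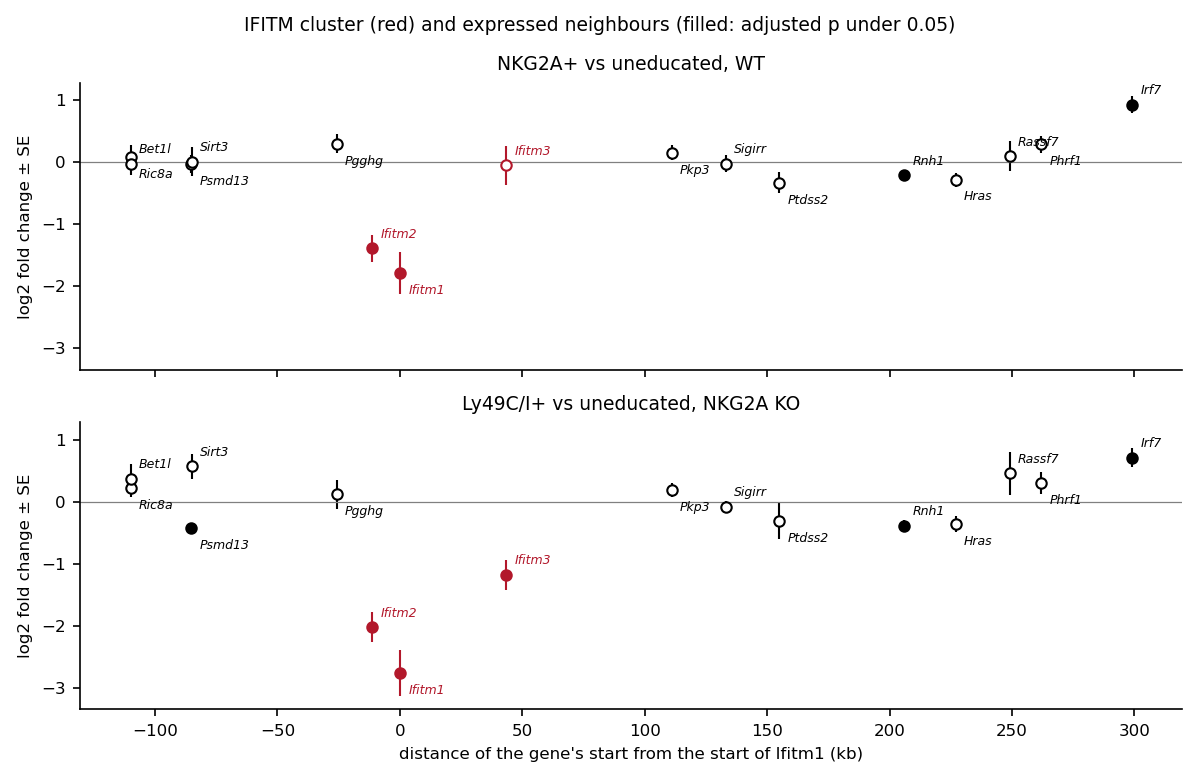
Log2 fold change ± SE of the IFITM cluster (red) and of expressed genes within 250 kb (black) against the distance in kb from the start of Ifitm1, for NKG2A+ (top) and NKG2A KO Ly49C/I+ cells (bottom), each against uneducated cells. Filled points passed an adjusted p of 0.05. Ifitm1 is at -1.79 (top) and -2.76 (bottom) and Ifitm2 at -1.39 and -2.02, while every neighbour stays between -0.42 and 0.93.

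Across the 37 libraries, Ifitm1 and Ifitm2 resembled each other and many other genes, of which only the nearest are named here. Ifitm3 ranked 228 in likeness to Ifitm1 (r = 0.75) and 290 in likeness to Ifitm2 (r = 0.76). These correlations of log2(CPM + 1) are descriptions over libraries that share their groups, among 9287 genes. The genes most like Ifitm1 were Ifitm2 (Pearson r = 0.94), Basp1 (0.93), a membrane-bound signalling protein, the endoplasmic reticulum proteins Manf (0.92) and Calr (0.91), and the pseudogene Gm8961 (0.91). The genes most like Ifitm2 were Basp1 (0.95), Gm8961 (0.94), Ifitm1 (0.94), Ybx1 (0.93), an RNA-binding protein, and Gzmd (0.93), a granzyme. With the group means subtracted, Ifitm1 was still closest to Basp1 (0.78) and Ifitm2 (0.78), and AA467197 (0.75) and Manf (0.75) were also among its nearest genes. Ifitm2 was then closest to Gzmd (0.82), Gzmf (0.81), Basp1 (0.80), Timm17a (0.79) and Ifitm1 (0.78). Gzmd had a mean of 3191 ± 1379 CPM in WT uneducated, 654 ± 256 in NKG2A+ and 741 ± 361 in WT Ly49C/I+ libraries. Basp1 had 166 ± 98.8, 36.6 ± 14.8 and 26.5 ± 13.2 CPM in the same groups.

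In this sense Ifitm10 had other neighbours, while Ifitm3 shared Basp1 and Ifitm2 with Ifitm1 once group means were subtracted. Over the 37 libraries Ifitm2 (0.76) and Ifitm1 (0.75) ranked 6 and 7 for Ifitm3, just after the genes named next. The genes most like Ifitm3 were Plac8 (0.82), Ier3 (0.78), Cd74 (0.78), which encodes the MHC class II invariant chain, Gm15518 (0.76) and Dkc1 (0.76), and with group means subtracted Basp1 (0.76), Ifitm2 (0.75), Lyz2 (0.73), the lysozyme of myeloid cells, Ier3 (0.73) and Cd74 (0.73). Those most like Ifitm10 were the MHC class I gene H2-D1 (0.88), Ier2 (0.88), Sept1 (0.86), Limd2 (0.86) and Tbx21 (0.86), which encodes T-bet, and with group means subtracted Efhd2 (0.85), H2-D1 (0.83), Ier2 (0.82), Selplg (0.80) and Cd2 (0.80). Ifitm10 ran against Ifitm1 (-0.59), Ifitm2 (-0.63) and Ifitm3 (-0.50).

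Marker genes of other cells moved with some of these values. The summed level of 7 neutrophil genes was low, at most 65.2 CPM, and went with Ifitm3 across libraries (r = 0.79, and 0.77 with group means subtracted, n = 37). Its medians were 8.63 CPM in WT uneducated, 6.15 in NKG2A+, 0.0278 in WT Ly49C/I+, 14.4 in KO uneducated and 2.00 in KO Ly49C/I+ libraries, where Ly6g, Cxcr2 and Retnlg were at 0 in every library. Mpo had means of 13.1, 2.18, 0, 13.2 and 0.424 CPM in this order. The means of S100a8 (1.53, 3.46, 3.6, 1.04 and 0.627 CPM) and S100a9 (1.04, 4.22, 5.43, 1.37 and 0.16 CPM) ran the other way in WT mice. Both had a median of 0 CPM in WT Ly49C/I+ libraries. In WT mice the lower sums of educated groups thus went with Mpo and not with the list as a whole. In KO mice every gene of the list except Csf3r had a lower mean in Ly49C/I+ than in uneducated libraries. Csf3r was at 0.795 against 0.413 CPM there. WT Ly49C/I+ library 1, the highest of its group for Ifitm1, Ifitm2, Ifitm3 and Ifitm6, also had the highest neutrophil sum (56.1 CPM) and macrophage and monocyte sum (1332 CPM) of its group. NKG2A+ libraries 1, 3 and 4, the highest of their group for Ifitm3, had decidual stroma sums (7 genes) of 490, 282 and 886 CPM, and the other 6 had at most 55.7 CPM. Their part in the result was not tested beyond the values without these libraries given above. In all other groups this sum stayed at or below 92.6 CPM. In NKG2A+ libraries it was nearly all Prl8a2, at up to 881 CPM. No other gene of the list exceeded 5.69 CPM there, and Col3a1 and Pgr were at 0 in every NKG2A+ library.

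Ifitm1 went with the basophil and mast cell list of 6 genes (r = 0.79, and 0.53 with group means subtracted). It also went with the neutrophil list (0.65 and 0.58) and the NK list (0.68 and 0.58), as did Ifitm2 (0.65 and 0.63 for neutrophil genes, 0.69 and 0.67 for NK genes). The NK sum was led by Gzmb, with means of 8873 CPM in WT uneducated, 5499 in NKG2A+ and 5918 in WT Ly49C/I+ libraries. Prf1 had 3265, 2016 and 1982 CPM in this order. Ncr1 ran the other way, at 608, 939 and 719 CPM, as did Klrk1, Klrb1c, Nkg7 and Tbx21. The NK sum is thus not read as NK cell content. The basophil and mast cell sum lay between 48.7 and 121 CPM in WT uneducated, 21.8 and 62.0 in NKG2A+, 27.5 and 55.8 in WT Ly49C/I+, 38.1 and 84.8 in KO uneducated, and 14.8 and 37.9 CPM in KO Ly49C/I+ libraries. The defining markers Ms4a2 and Prss34 were at 0 in every library of each educated group and at most 2.40 CPM elsewhere, so the sum was nearly all Kit, Mcpt8 and Cpa3. Mcpt8, a basophil protease, had a mean of 32.5 CPM in WT uneducated, 8.75 in NKG2A+ and 6.46 in WT Ly49C/I+ libraries, and 21.5 in KO uneducated and 2.07 in KO Ly49C/I+ libraries. Cpa3, a mast cell protease, had 11.9, 4.03, 1.73, 9.00 and 2.85 CPM in the same order. Kit had 36.3, 32.6, 33.8, 30.1 and 23.1 CPM, so in WT mice the lower sums went with Mcpt8 and Cpa3. The endothelium list was lower in educated cells too (207 to 346 CPM in WT uneducated, 121 to 205 in NKG2A+, 140 to 218 in WT Ly49C/I+, 178 to 346 in KO uneducated and 128 to 198 in KO Ly49C/I+ libraries), but nearly all of it was Pecam1, which NK cells also express, and the other 4 genes stayed at or below 4.89 CPM. The part of these cells in the fall of Ifitm1 was not tested. The other lists, for T, B and dendritic cells, trophoblast, epithelium, red blood cells and NK subsets, are given with the further observations.

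**Figure D5:**
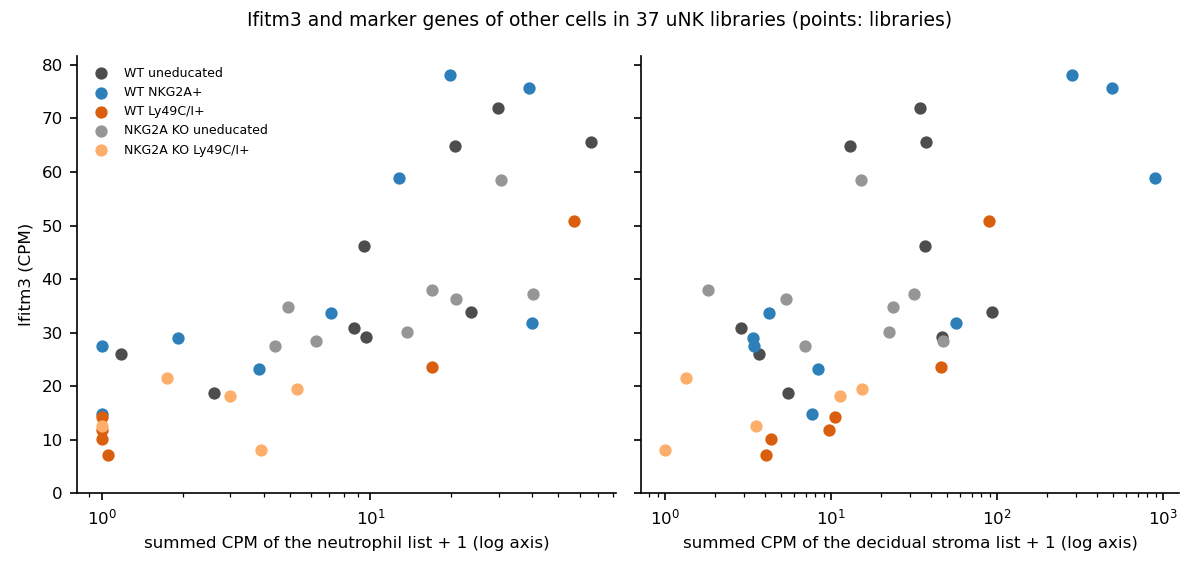
CPM of Ifitm3 (linear axis) against the summed CPM + 1 of 7 neutrophil genes (left) and of 7 decidual stroma genes (right), both on log axes, each point 1 of 37 libraries coloured by group. Libraries with more of the neutrophil list have more Ifitm3, and the 3 NKG2A+ libraries at 282, 490 and 886 CPM of the stroma list have 78.2, 75.6 and 58.9 CPM of Ifitm3.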

How the data were processed

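RNA was measured in 37 libraries of sorted uNK cells by SMART-Seq v4 and Nextera XT. According to the submitters' processing notes and the methods of the study, the authors trimmed reads with Trim Galore 0.5.0 and mapped them with STAR 2.7.1 to GRCm38, and they deposited raw counts of reads per Ensembl gene without normalization. How reads were assigned to genes, and whether by strand, is a point that the sources used here leave unstated. The 5 summary lines of each file were left out (no gene 2.69% to 6.83%, ambiguous 4.04% to 4.60%, not unique 11.3% to 13.8% of reads).

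The filter kept genes that reached 5 CPM in a share of 0.5 or more of the libraries of a comparison. Tests used edgeR 4.0.16 (R 4.3.3), quasi-likelihood test, TMM, Benjamini-Hochberg adjustment over all genes and a threshold of 0.05, fitting each comparison on its own groups. CPM printed are scaled by TMM over all libraries. Names, positions and lengths came from GENCODE M21 (52147 of 53700 identifiers matched), and promoters from RefSeq. The fits were tested on simulated counts.

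The members, lists and tests were chosen with earlier results of these data known. The rule for named genes took the 5 members, the 5 genes most like each, neighbours within 250 kb, and at most 4 called genes of the largest change per list. Libraries are numbered by their labels, and WT uneducated library 5 by its title, since its second label repeats number 4. Alternatives were DESeq2 1.42.0, edgeR's likelihood ratio test, RLE factors, a changed or no filter, GC and length offsets (splines, 5 degrees of freedom), 1 fit of all groups, a replicate block and left-out libraries. Leaving out the library with the fewest genes of each group, or the NKG2A+ libraries with high decidual stroma sums (nearly all Prl8a2), was chosen after seeing the data. Reads are from amplified cDNA without molecular identifiers, so depth covers counting error only. Protein sequences were not used here, and 1 gene that the rule would name is not reported here.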

Additional observations from a re-analysis of the deposited data

Results flagged for a closer look

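Among 21 combinations of 1 gene and 1 group of libraries, 4 held a library whose gap to the next was large for that range. Chance gives about 1 in 20 for independent combinations. These were not independent, since the flags recur in the same libraries for genes that go together, so nothing is read from their number. WT Ly49C/I+ library 1 stood apart for Ifitm1 at 47.4 CPM (the other 5 libraries between 7.86 and 21.9 CPM) and for Ifitm2 at 36.8 CPM (the others between 9.54 and 18.1 CPM). NKG2A KO uneducated library 3 stood apart for Ifitm1 at 262 CPM (the other 7 between 55.5 and 150 CPM) and for Ifitm3 at 58.6 CPM (the others between 27.5 and 37.9 CPM). Its neutrophil sum was 29.5 CPM and its basophil and mast cell sum 84.8 CPM, the latter the highest of its group.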

How the results depend on the processing

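Ifitm1 and Ifitm2 kept their direction and their calls against uneducated cells in NKG2A+ and in KO Ly49C/I+ cells under every alternative run. In NKG2A+ against Ly49C/I+ cells, where none was called, 1 member was called by DESeq2, 1 with the replicate block and 1 with the block and GC and length offsets (each time Ifitm1, and with the block at 1.34, adjusted p = 0.0155, or 0.02 with offsets), and leaving out single libraries gave 0 to 2. The replicate numbers were not taken as pairs: same-numbered libraries deviated together with r from -0.0167 to 0.26. This r was over 0.1 in 4 of 9 pairs (NKG2A+ and WT uneducated) and 5 of 6 (WT Ly49C/I+ and uneducated). It was over 0.1 in 2 of 6 (NKG2A+ and Ly49C/I+) and 2 of 5 pairs (KO). In the same order, 4 of 9, 5 of 6, 6 of 6 and 3 of 5 libraries correlated best with their own number. Whether same-numbered libraries share an animal is thus not settled, so fits with and without the block are given. With the block, 3 members were called in NKG2A+ (Ifitm10 added) and 3 in KO Ly49C/I+ cells against uneducated cells, and Ifitm1 of WT Ly49C/I+ cells stood at -2.96. With the block and the offsets Ifitm3 lost its call in KO Ly49C/I+ cells (-0.96, adjusted p = 0.0762), and the cause was not tested. Over all genes, calls ranged from 960 to 1728 in NKG2A+ cells, 78 to 558 in NKG2A+ against Ly49C/I+ cells, 561 to 1879 in KO and 451 to 1528 in WT Ly49C/I+ cells, and 0 to 118 between genotypes. Values for Ifitm6, at 0 in most libraries, are limited by depth.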

Other observations

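The remaining marker lists were T cell, between 86.5 and 242 CPM in all groups, B cell, between 368 and 661 CPM, and dendritic cell, between 8.74 and 54.1 CPM. Trophoblast genes reached 59.8 CPM in 1 WT uneducated library and had group medians of at most 4.48 CPM. Epithelium genes, mostly Cdh1 and Epcam, had medians of 255 CPM in WT uneducated, 122 in NKG2A+, 164 in WT Ly49C/I+, 214 in KO uneducated and 182 CPM in KO Ly49C/I+ libraries. Globin and Alas2 reads ran the other way from Ifitm1, with medians of 436, 1037, 831, 442 and 575 CPM in the same order. Tissue-resident NK genes lay between 191 and 473 CPM and conventional NK genes between 736 and 1269 CPM in all libraries. Macrophage and monocyte genes, of which Ccr2 and Ly6c2 gave most, had medians of 780, 925, 908, 768 and 1039 CPM.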
